A study of Mus musculus with 28 samples.

Results

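Imprinted genes are read from the maternal or the paternal chromosome only, and several of them set the growth of the fetus and of fat. A set of 8 such genes was followed in the retroperitoneal fat pad of mice fed conjugated linoleic acid (CLA) of the trans-10 cis-12 form, known to reduce fat stores in mice. The set was Mest, Nnat, Plagl1, Peg3, Igf2, Dlk1, Cdkn1c and H19. A gene was counted where at least 1 probe set of the array named it alone, and the brightest such probe set, by its average on the 28 arrays, stood for it. This held for 7 of the 8 genes, out of 18194 genes tested on the array. The only probe set found for H19 also names Mir675, a microRNA gene within it, so H19 entered no count.

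The CLA groups were mice aged 9 weeks, of a strain the labels spell C57BK/6J, that ate 0.5% trans-10 cis-12 CLA for 1, 2, 3, 4, 7, 10 or 17 days. The control groups were mice of the same strain and age on the control diet for the same days. There were 2 Affymetrix arrays for each diet on each day, 14 groups in all, and each sample pooled the retroperitoneal pads of 10 mice. Whether a group's arrays came from separate pools is not stated in the labels. Tests on single days or between days thus have p-values that measure only the spread between these arrays, which may be technical. P-values over all 7 days measure the spread of the daily differences between days.

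As background, Mest encodes a protein of the alpha/beta-hydrolase fold and is known in mice as a marker of fat pad expansion, high in enlarging adipocytes. Nnat encodes neuronatin, a small membrane proteolipid of the endoplasmic reticulum. Plagl1 and Peg3 encode zinc finger transcription factors, and Plagl1 is known in mice as a regulator of other imprinted genes. Igf2 encodes a fetal growth factor, and Dlk1 encodes preadipocyte factor, a membrane protein of progenitors that holds back adipocyte differentiation. These genes are read from the paternal chromosome, whereas Cdkn1c, an inhibitor of cyclin-dependent kinases, and H19, a long noncoding RNA, are read from the maternal one. Array signals do not separate the parental alleles, so all values below are totals over both.

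Values are log2 signals that the authors made with RMA, a method that corrects background, brings arrays to a common distribution and summarises the probes of a set. They ran from 1.90 to 14.18, with array medians between 4.1 and 4.2. The arrays of a group correlated with each other across genes at 0.979 to 0.995. The 3' minus 5' signal of the actin control probe sets, which is higher where RNA is more degraded, ran from 0.77 to 2.72 on CLA arrays and from 1.10 to 2.77 on control arrays. Its 3 highest values were on day 1, at 2.72 and 2.28 on the CLA arrays and 2.77 on control replicate 1. The part of this measure in the day 1 results was not tested, and the late against early results called for the 7 genes are also given without the day 1 arrays. Adipocyte markers were high throughout, with adiponectin (Adipoq) averaging 12.71 under CLA and 13.68 under control.

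Nnat, Mest and Plagl1 fell with CLA over the 7 days, and none of the 7 genes rose. Nnat lay 12.0-fold lower, Mest 2.81-fold lower and Plagl1 2.32-fold lower in CLA than in control pads. Peg3 and Cdkn1c shifted during feeding, with late CLA effects above the early ones, while no difference passed the test for Igf2 or Dlk1 on any day. Over the days as units of replication, 3 of 7 genes fell, where 19.8% of all genes tested fell and 38.5% changed in either direction. The median difference of the 7 genes was -0.44, against -0.03 for all genes. A gene is called changed where limma's adjusted p, over all genes, is under 0.05, and errors of differences are standard errors (SE). In a bulk pad, fewer cells of a type and less RNA per cell cannot be told apart.

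**Figure D1:**
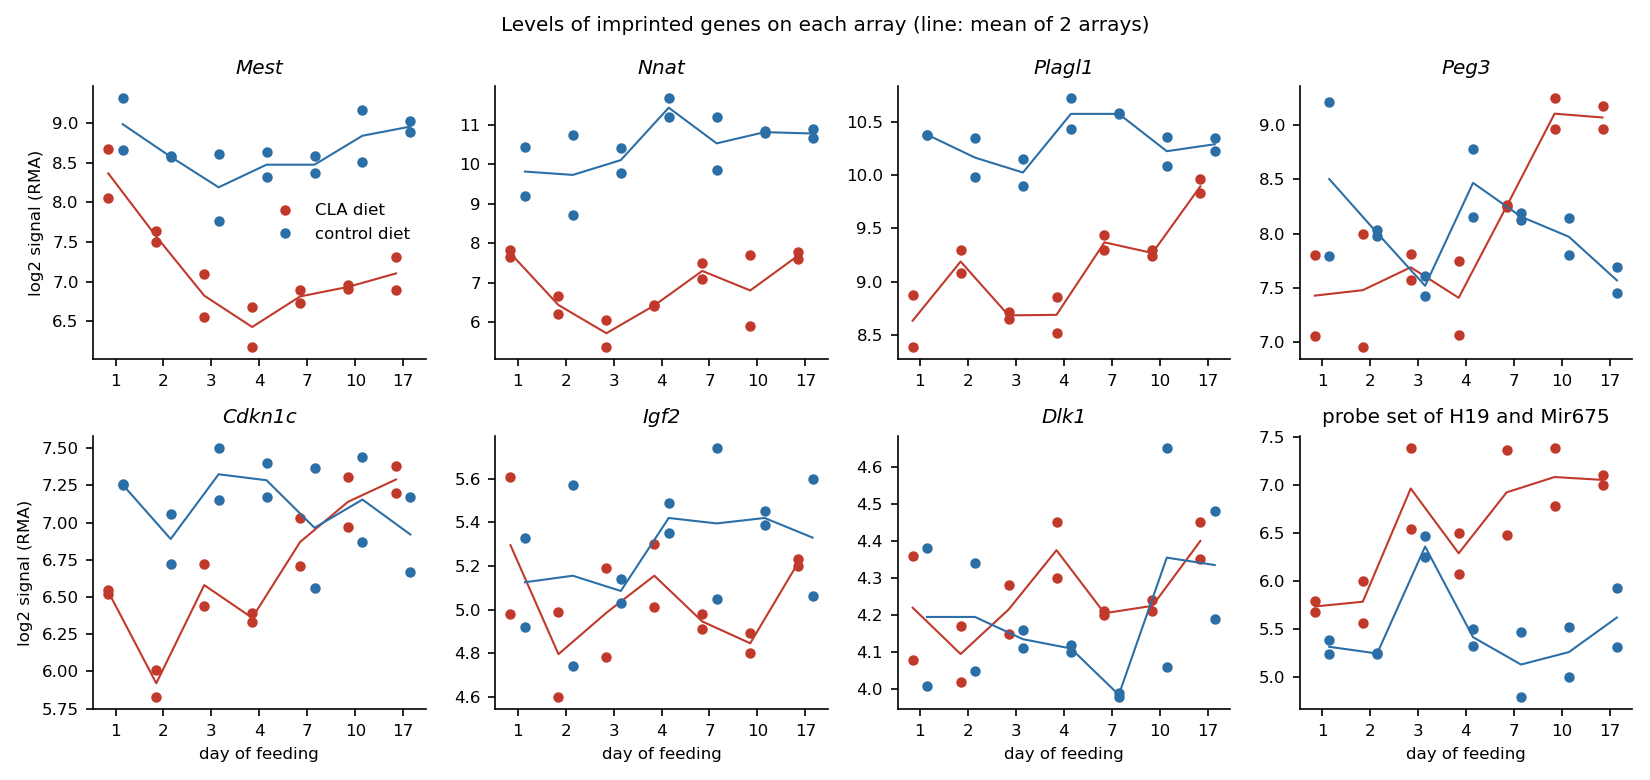
Log2 RMA signal of each of the 7 genes, and of the probe set annotated to H19 and Mir675, by day of feeding. Points are single arrays (2 per diet and day; red CLA, blue control), lines join their means, and each panel has its own scale. Every CLA array of Nnat, from 5.37 to 7.83, lies under every control array, from 8.72 to 11.67, while the Peg3 lines cross.

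The start regions of the genes that changed are shown because imprinting control acts on CpG sites near such starts. Each run is the 250 bases before a transcript start in RefSeq, assembly GRCm38.p6, written 5' to 3' on the gene's strand, with CpG in capitals. Mest has 3 starts in RefSeq, and the second is shown because its run holds 14 CpG, against 7 in that of the first. The assembly behind the array values is not given in the sources used here.
Nnat (chr2:157559828-157560077, plus strand, 12 CpG): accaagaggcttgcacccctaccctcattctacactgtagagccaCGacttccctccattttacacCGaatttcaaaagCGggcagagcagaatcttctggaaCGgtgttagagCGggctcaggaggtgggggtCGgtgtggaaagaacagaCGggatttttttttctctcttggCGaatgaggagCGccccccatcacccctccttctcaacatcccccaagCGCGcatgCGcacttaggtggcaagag
Mest (chr6:30737800-30738049, plus strand, 14 CpG): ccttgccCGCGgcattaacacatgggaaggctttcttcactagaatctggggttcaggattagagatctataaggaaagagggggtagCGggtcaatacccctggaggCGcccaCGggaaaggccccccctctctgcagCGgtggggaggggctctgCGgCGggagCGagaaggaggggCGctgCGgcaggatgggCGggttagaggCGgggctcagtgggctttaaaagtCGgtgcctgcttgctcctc
Plagl1 (chr10:13090582-13090831, plus strand, 19 CpG): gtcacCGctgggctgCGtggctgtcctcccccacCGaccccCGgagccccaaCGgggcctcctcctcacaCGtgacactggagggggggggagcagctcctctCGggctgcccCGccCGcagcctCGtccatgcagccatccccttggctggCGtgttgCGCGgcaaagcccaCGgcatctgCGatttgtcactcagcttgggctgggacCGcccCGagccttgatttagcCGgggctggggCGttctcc
Peg3 (chr7:6730420-6730669, minus strand, 8 CpG): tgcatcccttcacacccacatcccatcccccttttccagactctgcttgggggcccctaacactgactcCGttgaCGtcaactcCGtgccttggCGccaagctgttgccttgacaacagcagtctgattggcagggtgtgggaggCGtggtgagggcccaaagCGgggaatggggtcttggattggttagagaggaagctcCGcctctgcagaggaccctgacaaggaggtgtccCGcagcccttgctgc
In windows of 300 bases that also take the 50 bases after the start, Plagl1 held 26 CpG, and 16.87% of 32851 such mouse windows hold as many. The Mest and Nnat windows held 17 each, as 31.41% of windows do, and the Peg3 window held 13, as 37.91% do. The window of the first Mest start held 8, as 48.65% do, and the median window holds 7.
The GC box GGGCGG, searched on both strands, is in 35.66% of windows and was found at 1 place for Mest and at 2 for Plagl1. The CCAAT box, in 37.41% of windows, was found at 2 places for Peg3, which also held GGGGCCCC, part of the sequence bound by PLAGL1 and present in 1.08% of windows. The Nnat window held none of the 5 motifs searched, which were these 3, TATAAA (13.62% of windows) and TTGCGCAA (0.18%). Such matches describe letters only. The windows of Igf2 and Dlk1 were searched too and are not shown, and those of Cdkn1c and H19 were not analysed here.

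Nnat showed the largest difference of the 7 genes. It lies on chr2:157560078-157562525 inside the Blcap gene (GRCm38.p6). Its probe set 1423506_a_at read 7.65 and 7.83 in CLA pads on day 1, against 9.20 and 10.43 in control pads. On day 2 it read 6.20 and 6.66 under CLA, against 8.72 and 10.74 under control. On day 3 it read 5.37 and 6.06 under CLA, against 9.79 and 10.42 under control. The CLA signal was lowest on day 3, and the control arrays of day 2 lay far apart. On day 4 it read 6.40 and 6.44 under CLA, against 11.20 and 11.67 under control. On day 7 it read 7.10 and 7.49 under CLA, against 9.86 and 11.20 under control. On day 10 the CLA arrays read 5.89 and 7.71, against 10.84 and 10.79 in control pads. One of these CLA arrays was thus far lower than its partner. On day 17 it read 7.59 and 7.78 under CLA, against 10.67 and 10.89 under control. Both CLA arrays lay below both control arrays on all 7 days, which was so for 6.46% of all genes tested, while 4.07% lay above on all days. On single days, CLA arrays lay below control arrays in this way for 22.4% of genes on day 1, 23.5% on day 2, 28.7% on day 3, 31.4% on day 4, 29.6% on day 7, 33.3% on day 10 and 33.4% on day 17. They lay above for 22.5%, 19%, 29.1%, 28.5%, 23.7%, 23.4% and 30.1% of genes on the same days. The all-days difference was -3.59 ± 0.31 (SE, n = 7 days, adjusted p = 4.44e-05), which ranked 20 by size among the 18194 genes.

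The daily differences of Nnat were -2.08 on day 1, -3.30 on day 2, -4.39 on day 3 and -5.02 on day 4. They were -3.24 on day 7, -4.02 on day 10 and -3.10 on day 17, each ± 0.58 (SE, n = 2 arrays per diet). Nnat fell on each of the 7 days, as did 2.47% of all genes tested, with adjusted p from 2.54e-06 on day 4 to 0.0156 on day 1. The day 1 call was lost without CLA replicate 1 (-1.99, adjusted p = 0.0755), without CLA replicate 2 (-2.17, adjusted p = 0.0526) and without control replicate 2 (-1.46, adjusted p = 0.177). The day 2 call was lost without control replicate 2 (-2.29, adjusted p = 0.0561). The diet by day interaction did not pass for Nnat (adjusted p = 0.218), although without control replicate 2 of day 2 it did (0.0453).

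Mest, on chr6:30733506-30748466, did not pass the test on the first day and fell on the 6 later ones. Its probe set 1423294_at read 8.67 and 8.06 in CLA pads on day 1, against 8.66 and 9.31 in control pads, and the groups overlapped. Day 2 gave 7.64 and 7.50 under CLA, against 8.57 and 8.58 under control. Day 3 gave 7.10 and 6.55 under CLA, against 7.77 and 8.61 under control. The CLA arrays were then lower than on day 1. On day 4 it read 6.68 and 6.18 under CLA, against 8.32 and 8.63 under control. Day 7 gave 6.90 and 6.73 under CLA, against 8.37 and 8.58 under control. The CLA means of these days were the lowest in the series of days. Day 10 gave 6.96 and 6.91 under CLA, against 9.17 and 8.51 under control. On day 17 it read 7.31 and 6.90 under CLA, against 9.02 and 8.89 under control. The arrays did not overlap on any of the 6 days after the first. On these days 23.5% to 33.4% of all genes tested lay below in this way. The all-days difference was -1.49 ± 0.17 (SE, n = 7 days, adjusted p = 0.000183).

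By day, the Mest difference was -0.62 on day 1, which did not pass (adjusted p = 0.164), then -1.01 on day 2 and -1.37 on day 3. It was -2.05 on day 4, -1.66 on day 7, -1.91 on day 10 and -1.85 on day 17, each ± 0.29 (SE, n = 2 arrays per diet). All 6 later differences passed. The day 2 call was lost without any single array of that day, with differences of -0.94 to -1.08 and adjusted p of 0.0804 to 0.223, and the day 3 call without control replicate 2 (-0.95, adjusted p = 0.0604). Within the CLA diet the levels ran from lowest to highest as day 4, 7, 3, 10, 17, 2 and 1. Day 4 lay below day 7, the next in that order, but overlapped day 3. Days 7, 3, 10 and 17 overlapped their neighbours in that order, and days 2 and 1 each stood above the days before them. The control days held between means of 8.19 and 8.99.

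Plagl1, on chr10:13090832-13131694, was lower under CLA from the first day. Its probe set 1426208_x_at read 8.88 and 8.39 in CLA pads on day 1, against 10.38 and 10.38 in control pads. The pads of day 2 gave 9.30 and 9.08 under CLA, against 9.98 and 10.35 under control. Those of day 3 gave 8.72 and 8.65 under CLA, against 9.90 and 10.15 under control. The control arrays stayed near 10 while the CLA arrays varied. On day 4 it read 8.86 and 8.52 under CLA, against 10.43 and 10.72 under control. The pads of day 7 gave 9.30 and 9.44 under CLA, against 10.58 and 10.57 under control. Those of day 10 gave 9.24 and 9.30 under CLA, against 10.36 and 10.09 under control. The CLA arrays of days 7 and 10 lay above those of day 4. On day 17 it read 9.83 and 9.96 under CLA, against 10.23 and 10.35 under control. The CLA arrays lay below the control arrays on all 7 days, as for 6.46% of all genes tested, and the gap was narrowest on day 17. The all-days difference was -1.21 ± 0.16 (SE, n = 7 days, adjusted p = 0.000463).

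The daily differences of Plagl1 were -1.75 on day 1, -0.98 on day 2, -1.34 on day 3 and -1.89 on day 4. They were -1.21 on day 7, -0.96 on day 10 and -0.40 on day 17, each ± 0.18 (SE, n = 2 arrays per diet). Plagl1 fell on 6 days, and the day 17 difference did not pass (adjusted p = 0.13). Without control replicate 2 of day 2 the call of that day was lost (-0.79, adjusted p = 0.0593). The interaction passed for Plagl1 (adjusted p = 0.00427), but not with the mean of all its probe sets (0.294). With that mean the day 2 call (-0.44, adjusted p = 0.0577) and the day 10 call (-0.33, adjusted p = 0.122) were lost too. In probe set names, the ending x marks probes that can also bind other sequences, and both other Plagl1 probe sets were dim. The probe set 1450533_a_at fell by 0.51 ± 0.11 over the days (SE, n = 7 days, adjusted p = 0.00657 over 45037 probe sets), while 1438588_at showed -0.08 (adjusted p = 0.379). The daily course of 1450533_a_at was not that of the set used, with -0.80 on day 17 (adjusted p = 0.0381), its largest fall, and 0 on day 2. Its interaction did not pass (adjusted p = 0.601), and its late minus early value, defined below with Peg3, was -0.13 (adjusted p = 0.772).

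Peg3, on chr7:6703892-6730462, fell on day 4 and rose on days 10 and 17 in the probe set used. Its probe set 1433924_at read 7.75 and 7.07 in CLA pads on day 4, against 8.15 and 8.78 in control pads. On day 10 it read 9.24 and 8.96 under CLA, against 8.14 and 7.80 under control. On day 17 it read 8.96 and 9.17 under CLA, against 7.45 and 7.69 under control. The arrays did not overlap on these 3 days. Of all genes tested, 31.4% lay below on day 4, and 23.4% and 30.1% above on days 10 and 17. On day 1 the Peg3 arrays did overlap, with 7.80 and 7.06 under CLA, against 9.21 and 7.79 under control. Those of day 2 were 8.0 and 6.96 under CLA, against 7.98 and 8.03 under control. Day 3 gave 7.57 and 7.81, against 7.43 and 7.61 in control pads. The diets overlapped on these days as well. On day 7 the CLA arrays read 8.24 and 8.26, just above the control arrays at 8.12 and 8.19 (CLA above for 23.7% of all genes).

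Over the 7 days the Peg3 difference was 0.03 ± 0.32 (SE, n = 7 days, adjusted p = 0.949), with daily differences of opposite sign. It fell on day 4 by 1.06 (adjusted p = 0.0466), rose on day 10 by 1.13 (adjusted p = 0.038) and rose on day 17 by 1.50 (adjusted p = 0.00653). The differences of -1.07 on day 1, -0.53 on day 2, 0.17 on day 3 and 0.10 on day 7 did not pass, and all had an SE of 0.37 (n = 2 arrays per diet). A fall on at least 1 day and a rise on at least 1 other was called for 1.52% of genes tested. The day 4 call was kept in only 8 of the 28 omissions of a single array, with -0.72 (adjusted p = 0.378) without CLA replicate 2. The day 1 difference passed without CLA replicate 1 (-1.44, adjusted p = 0.0336), without control replicate 2 (-1.78, adjusted p = 0.00256) and without either CLA array of day 2 (adjusted p = 0.0338). The day 10 call was lost without any single array of that day, with differences of 0.96 to 1.30. The day 17 call was lost without CLA replicate 2 (1.39, adjusted p = 0.0569) or control replicate 1 (1.38, adjusted p = 0.0587).

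The test over days was firmer for Peg3. The average CLA effect of days 7, 10 and 17, less the average of days 1, 2 and 3, is called late minus early and was 1.38 ± 0.31 (SE, adjusted p = 0.0061). It stayed past the threshold in all 37 alternatives, each single array left out included, and was 1.08 without the day 1 arrays (adjusted p = 0.0165). Of the other Peg3 probe sets, 1417355_at gave 1.79 (adjusted p = 0.0275) and 1417356_at gave 1.04 (adjusted p = 0.0433) for late minus early, both adjusted over all probe sets. Neither passed on day 10, at 0.70 (adjusted p = 0.512) and 0.57 (0.371), or on day 17, at 0.92 (0.374) and 0.88 (0.133). Their interactions did not pass either (adjusted p = 0.184 and 0.0687). On day 4, 1417356_at passed at -1.38 (adjusted p = 0.0112), while 1417355_at did not, at -1.24 (0.182). Control replicate 1 of day 7 read 5.01 on 1417355_at, against 7.80 for replicate 2. The sets 1447731_at and 1447732_x_at were dim, with means of 2.42 and 2.57.

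**Figure D2:**
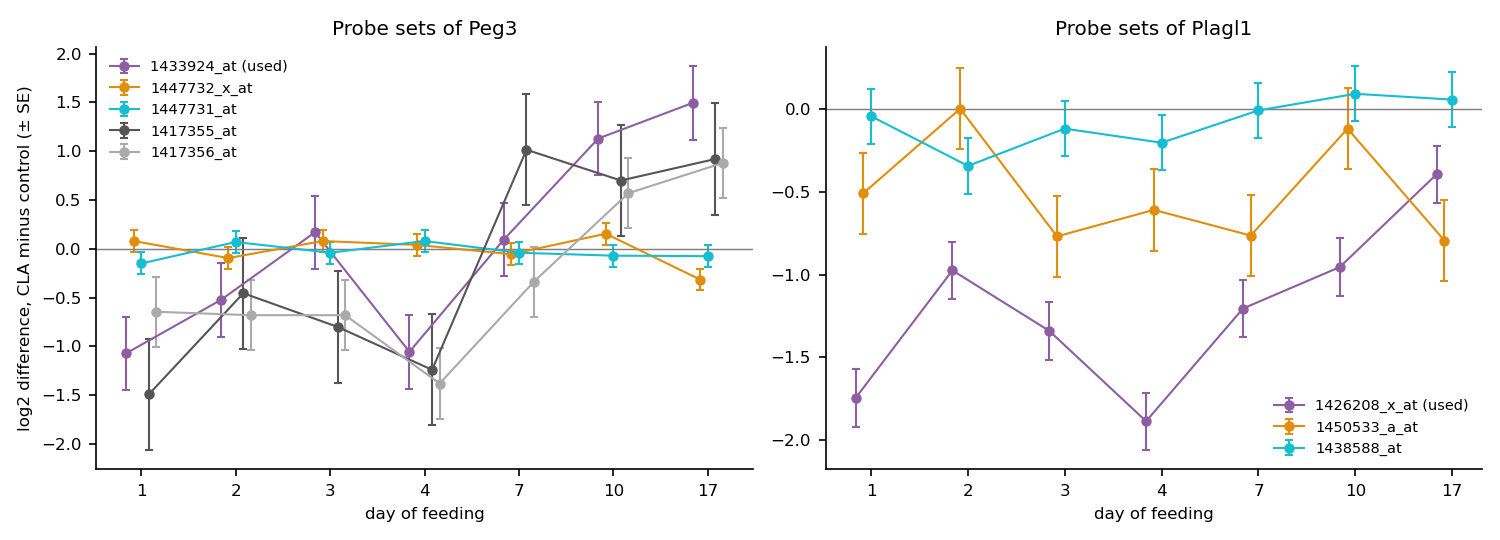
Difference of log2 signal, CLA minus control, by day for each probe set of Peg3 and of Plagl1, with SE bars (n = 2 arrays per diet and day). The 3 bright Peg3 sets lie below 0 on day 4 and above 0 on day 17, and the 2 dim ones lie closer to 0 on those days. Among Plagl1 sets the one used shows the lowest values on every day up to day 10.

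Cdkn1c, the kinase inhibitor on chr7:143458339-143461059, was lower under CLA on the first 4 days. Its probe set 1417649_at read 6.55 and 6.52 in CLA pads on day 1, against 7.26 and 7.25 in control pads. Day 2 had 6.01 and 5.83 under CLA, against 6.72 and 7.06 under control. Day 3 had 6.44 and 6.72 under CLA, against 7.15 and 7.50 under control. The CLA signal was lowest on day 2. On day 4 it read 6.39 and 6.33 under CLA, against 7.17 and 7.40 under control. Day 7 had 6.71 and 7.03 under CLA, against 6.56 and 7.37 under control. Day 10 had 6.97 and 7.31 under CLA, against 7.44 and 6.87 under control. By then the CLA arrays lay within the span of the control arrays. On day 17 it read 7.38 and 7.20 under CLA, against 6.67 and 7.17 under control. The arrays lay apart on days 1 to 4 with CLA below, as for 22.4% to 31.4% of all genes by day. They overlapped on days 7 and 10, and lay apart with CLA above on day 17, as for 30.1%.

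Cdkn1c fell by 0.72 on day 1 (adjusted p = 0.0451), 0.97 on day 2 (0.0141), 0.75 on day 3 (0.0326) and 0.93 on day 4 (0.00789). Its differences on days 7, 10 and 17 were -0.10, -0.02 and 0.37 and did not pass. All had an SE of 0.24 (n = 2 arrays per diet). Without CLA replicate 2, the calls were lost on days 2 (-0.88, adjusted p = 0.106), 3 (-0.89, adjusted p = 0.0531) and 4 (-0.90, adjusted p = 0.0575). Without control replicate 2 they were lost on days 2 (-0.80, adjusted p = 0.233), 3 (-0.57, adjusted p = 0.256) and 4 (-0.81, adjusted p = 0.0768), and without CLA replicate 1 on day 3 (-0.61, adjusted p = 0.215). The day 1 call was lost without any of its 4 arrays (-0.71 to -0.74, adjusted p = 0.12 to 0.138) and, through the shared spread, without any array of day 4 or either CLA array of day 17 (adjusted p = 0.0519 to 0.0557). Over the 7 days its difference of -0.44 ± 0.17 did not pass (SE, n = 7 days, adjusted p = 0.0697), as in 15 of 19 alternatives. It passed with the arrays brought to a common distribution again (-0.48, adjusted p = 0.0431) and without day 17 (-0.58, adjusted p = 0.0172). It also passed with the 28 arrays as units, without and with a replicate block (adjusted p = 0.00608 and 0.00544). Late minus early was 0.90 ± 0.20 (SE, adjusted p = 0.0062) and stayed past the threshold in all 37 alternatives, at 0.94 without the day 1 arrays (adjusted p = 0.0222).

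Igf2 and Dlk1 had low signals. Igf2, on chr7:142650768-142666816, had a lowest, median and highest signal of 4.60, 4.99 and 5.61 over the 14 CLA arrays, against 4.74, 5.34 and 5.74 over the 14 control arrays. Dlk1, on chr12:109452485-109463336, had 4.02, 4.23 and 4.45 under CLA, against 3.98, 4.12 and 4.65 under control. Over all arrays both genes overlapped between the diets. By day, the CLA arrays of Igf2 lay below both control arrays on days 4, 7 and 10, as for 31.4%, 29.6% and 33.3% of all genes. Those of Dlk1 lay above on days 4 and 7, as for 28.5% and 23.7%. The mean of Dlk1 was near the median of 4.14 over all values. The Igf2 difference was -0.24 ± 0.09 (SE, n = 7 days, adjusted p = 0.0615), with daily values from -0.58 to 0.17. It passed without day 1 (-0.31, adjusted p = 0.00995), without replicate 2 of every group (-0.31, adjusted p = 0.014) and with no day block (adjusted p = 0.0483). The other Igf2 probe set, 1415931_at, averaged 2.90 and showed 0.085 over the 7 days (adjusted p = 0.502 over all probe sets). The Dlk1 difference was 0.06 ± 0.06 (SE, n = 7 days, adjusted p = 0.509), with daily values from -0.13 to 0.27. The other Dlk1 probe set, 1442724_at, averaged 3.09 and showed -0.08 (adjusted p = 0.484 over all probe sets). At such a level a change of Dlk1 may not be detectable.

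**Figure D3:**
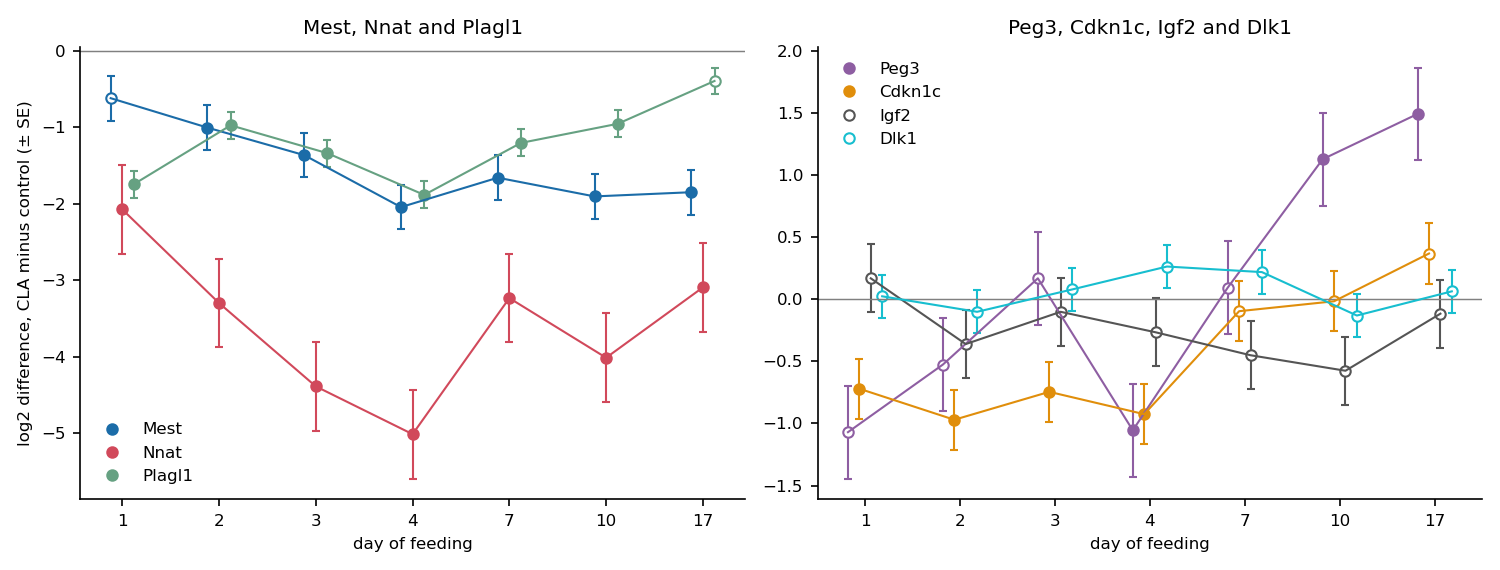
Difference of log2 signal, CLA minus control, on each day of feeding, with SE bars (n = 2 arrays per diet). Filled points have an adjusted p under 0.05, open points do not. Nnat is lowest on day 4 at -5.02, Mest stays near -1.85 late, Plagl1 is at -0.40 on day 17, and Peg3 reaches 1.50 on that day.

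Counted by day, 3 of the 7 genes fell and 0 rose on day 1, where 10.8% of all genes tested fell and 7.96% rose. On day 2, 4 fell and 0 rose (5.34% and 4.84% of all genes), on day 3, 4 fell and 0 rose (11% and 11.3%), and on day 4, 5 fell and 0 rose (11.3% and 12.8%). On day 7, 3 fell and 0 rose (8.57% and 8.74%). On day 10, 3 fell and 1 rose (10.2% and 10%), and on day 17, 2 fell and 1 rose (8.78% and 11.5%). The percentages are those of all genes tested that fell and rose on the same day. Peg3 was the gene that rose on each of these last 2 days.

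Late minus early rose for 3 of the 7 genes, where it rose for 6.2% of all genes, and fell for 1, where it fell for 3.51%. The risers were Peg3, Cdkn1c and Plagl1, at 0.50 ± 0.14 (SE, adjusted p = 0.0315), and Mest fell, at -0.81 ± 0.24 (SE, adjusted p = 0.0375). The Plagl1 call was lost in 11 of the 28 omissions of a single array, without the day 1 arrays (0.31, adjusted p = 0.3) and with the mean of its probe sets (0.19, adjusted p = 0.323). The Mest call was lost in 15 of them and without the day 1 arrays (-0.62, adjusted p = 0.174). The interaction passed for 3 genes, where it passed for 9.82% of all genes. These were Plagl1, Peg3 (adjusted p = 0.00811) and Cdkn1c, whose adjusted p of 0.0496 passed in only 5 of the 28 omissions.

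Within the control diet, limma's F test over the 7 days called 0 of 7 genes, where it called 0.115% of all genes, and Plagl1 alone had an unadjusted p under 0.05, at 0.0432. Within the CLA diet it called 4 of 7, where it called 25.3% of all genes. These were Mest (adjusted p = 0.000815), Plagl1 (9.18e-05), Peg3 (0.00178) and Cdkn1c (0.00279). Nnat did not pass (0.0756), but did without either control array of day 2 or either CLA array of day 10 (0.0219 to 0.0259). In CLA pads Plagl1 was lowest on days 1, 3 and 4, which overlapped, higher on days 2, 10 and 7, and highest on day 17. Peg3 was highest on days 17 and 10, with day 7 below them and days 4, 1, 2 and 3 lower still.

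Of 39 other imprinted genes measured, 6 rose and 12 fell over the 7 days, with a median difference of 0.01. Of all genes tested 18.7% rose and 19.8% fell over the 7 days, 38.5% in either direction, and the counts of this and the following lists are to be read against those shares. Nap1l5, a gene of the nucleosome assembly protein family, averaged 3.63 under CLA and 5.47 under control and fell by 1.84 ± 0.07 (SE, n = 7 days, adjusted p = 1.82e-06). Ppp1r9a, an actin-binding partner of protein phosphatase, fell by 1.50, and Sgce, the epsilon sarcoglycan of the same imprinted cluster, fell by 1.09. Asb4, also of that cluster and a substrate adaptor of ubiquitin ligases, rose by 1.20 ± 0.18 (SE, adjusted p = 0.000863). Its signal was low, averaging 4.64 under CLA and 3.43 under control, where the median over all values was 4.14. Genes of that cluster thus included 1 that rose and 2 that fell.

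The genes next to Nnat and Mest are named for their position. Blcap, whose span holds Nnat, averaged 7.66 under CLA and 8.68 under control and fell by 1.03 ± 0.10 (SE, n = 7 days, adjusted p = 7.91e-05). Copg2, a coat protein gene next to Mest, averaged 6.35 under CLA and 6.93 under control and fell by 0.58 ± 0.12 (SE, n = 7 days, adjusted p = 0.00385). Both differences were smaller than those of Nnat and Mest, and the difference between neighbours was not tested.

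**Figure D4:**
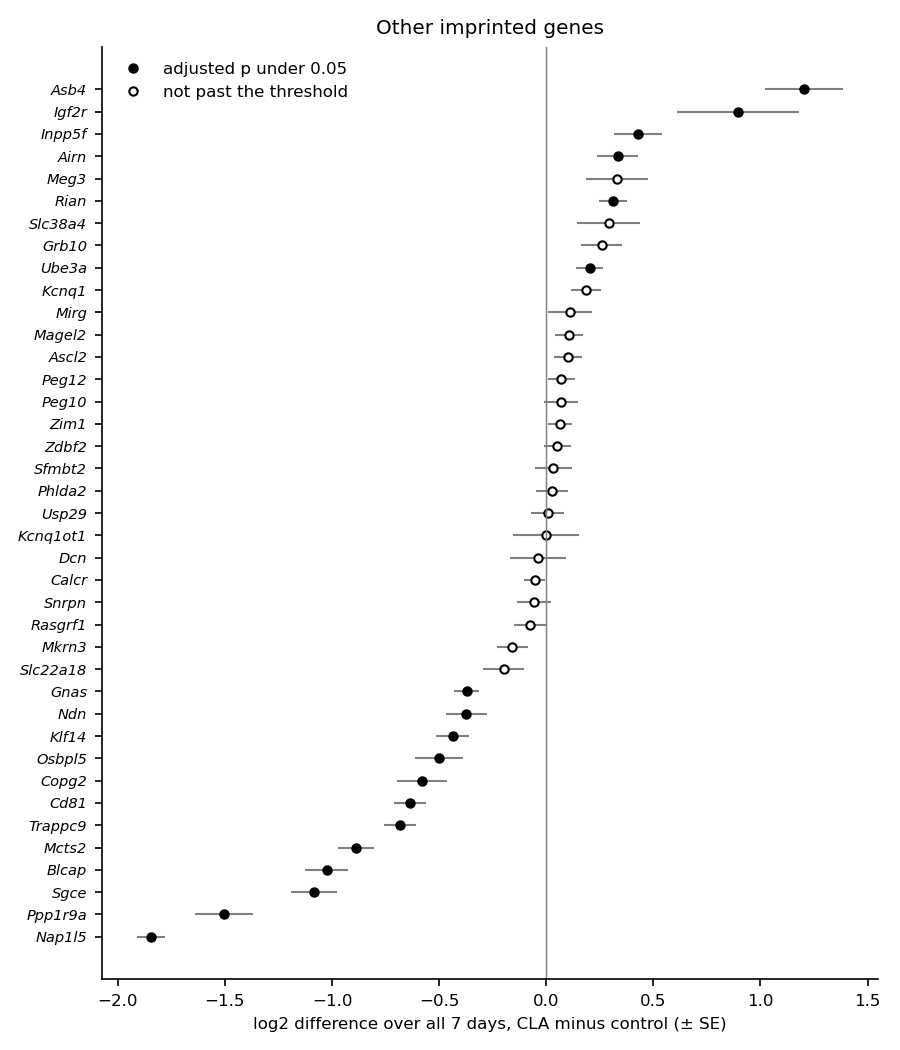
Difference of log2 signal over all 7 days, CLA minus control, for the 39 other imprinted genes measured, sorted by value, with SE bars (n = 7 days). Filled points have an adjusted p under 0.05 (6 above 0 and 12 below), open points do not.

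In the insulin-like growth factor axis, 1 of 16 genes rose and 7 fell over the 7 days (18.7% and 19.8% of all genes), with a median of -0.24. Irs1, the adaptor that carries signals from the insulin and growth factor receptors, fell by 1.59, the insulin receptor Insr by 1.00 and the binding protein Igfbp3 by 0.96. Igf2r, an imprinted receptor that clears the Igf2 protein, rose by 0.90 (adjusted p = 0.0348), a call lost without any single one of days 2, 3, 4, 7, 10 and 17 (0.78 to 0.95, adjusted p = 0.0541 to 0.0966). The ligand Igf1 fell by 0.24 (adjusted p = 0.034), and its receptor Igf1r showed -0.15 (adjusted p = 0.34).

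Among 16 genes of Notch signalling and inhibitors of adipogenesis, to which Dlk1 is related, 2 rose and 5 fell (18.7% and 19.8% of all genes), with a median of -0.14. The protease Adam17, known to shed the DLK1 ectodomain, rose by 1.17, though not with its most variable probe set (0.66, adjusted p = 0.0505). The receptor Notch4 fell by 1.07, and the ligands Dll4 and Jag1 fell by 0.76 and 0.57. Without replicate 2 of every group the Jag1 call was lost (-0.33, adjusted p = 0.089). Notch4 and Dll4 are endothelial genes, and 7 of 10 endothelial markers fell as well. The part of endothelial cells in the falls of Notch4 and Dll4 was not tested.

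Of 14 other cyclin-dependent kinase inhibitors, cyclins and kinases of G1, 5 rose and 3 fell (18.7% and 19.8% of all genes), with a median of 0.26. Cdk6 rose by 1.63, cyclin E2 (Ccne2) by 1.54 and cyclin D1 (Ccnd1) by 1.52, and the inhibitor Cdkn2c fell by 1.34. Of the genes known with Mest from fat pad expansion and caveolae, all 6 measured fell, with a median of -0.86. The Wnt antagonist Sfrp5 fell by 1.13, the natriuretic peptide clearance receptor Npr3 by 0.99, and the caveolar genes Cavin2 and Cav2 by 0.95 and 0.77.

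The genes whose daily differences lay closest to those of a fallen gene were sought among 16314 named genes, by the root mean square of the 7 daily gaps. For Mest these were Cdc42ep1 (0.22), Msrb3 (0.24) and Heph (0.25). For Plagl1 they were Neo1 (0.16), Pard6g (0.22) and Fam120aos (0.24). For Nnat the closest were Eci3 (0.91), Elovl6 (0.93) and Acsm3 (0.94); these gaps are not scaled to its larger differences and SE.

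Markers of several cell types moved with the diet. Of 15 adipocyte markers 14 fell and 0 rose, with a median of -1.43, and the log2 of their summed signal was 15.40 to 15.79 under CLA, against 16.21 to 16.65 under control. Thrsp, a lipogenic regulator, fell by 2.27, the glucose transporter Slc2a4 by 2.25, the lipase Lipe by 2.04 and leptin (Lep) by 1.87. Of 14 macrophage markers 12 rose, with a summed level of 12.67 to 14.97 under CLA, against 12.60 to 13.31 under control. Of 12 progenitor markers 1 rose and 6 fell, with a summed level of 13.11 to 14.21 under CLA, lowest on day 4 and highest on day 17, against 13.68 to 14.10 under control.

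Over all arrays, the sums of other cell types overlapped in range between the diets. The 10 endothelial markers summed to 9.36 to 10.37 under CLA, against 10.20 to 10.84 under control, and the 9 mesothelial ones to 9.05 to 10.09, against 9.81 to 10.60. Within days, however, both CLA endothelial sums lay below both control sums on each day from day 2 to day 17. The mesothelial sums lay apart in this way on days 3, 4, 7, 10 and 17. Over the 7 days 7 of the endothelial and 6 of the mesothelial markers fell, and 0 rose. The 10 nerve and Schwann cell markers, a tissue where Nnat is also found, summed to 10.69 to 11.93 under CLA, against 11.22 to 11.86 under control, and 2 of them fell. Those that fell were the myelin gene Mbp, averaging 8.72 under CLA and 9.24 under control (adjusted p = 0.0477), and the neuronal gene Stmn2, averaging 4.52 under CLA and 4.79 under control (adjusted p = 0.0471). Both calls were lost without any single one of days 3, 4 and 7, and with all probe sets tested (adjusted p = 0.0547 and 0.0517). The neuronal markers Nefl, Tubb3, Snap25 and Elavl4 averaged under the median of 4.14. Of 12 adrenal markers 7 did too, Cyp11a1 and Th among them, while the corticotropin receptor Mc2r fell by 2.52 and the steroid transport gene Star rose by 1.18. The adrenal sum was 8.16 to 9.17 under CLA, against 8.85 to 9.22 under control. On day 17 it was 8.24 and 8.34 under CLA, against 9.09 and 9.04 under control. Mc2r is part of this sum and averaged 5.36 under CLA and 7.88 under control. Both CLA adrenal sums lay below both control sums on each day from day 2 to day 17. Over the 7 days 9 of the 12 adrenal markers were not called, but a change of the 7 dim ones may not be detectable. Whether the pads held adrenal tissue was not tested. The 9 kidney markers summed to 6.94 to 7.24 under CLA and 6.89 to 7.24 under control. Muscle markers summed to 9.53 to 13.47 under CLA and 10.74 to 14.45 under control. On day 4, where Nnat and Mest differed most, muscle sums were 10.41 and 10.45 under CLA, against 11.61 and 12.23 under control. Endothelial sums that day were 9.50 and 9.49 under CLA, against 10.46 and 10.80 under control. The part of these cell types in the results of the imprinted genes was not tested.

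**Figure D5:**
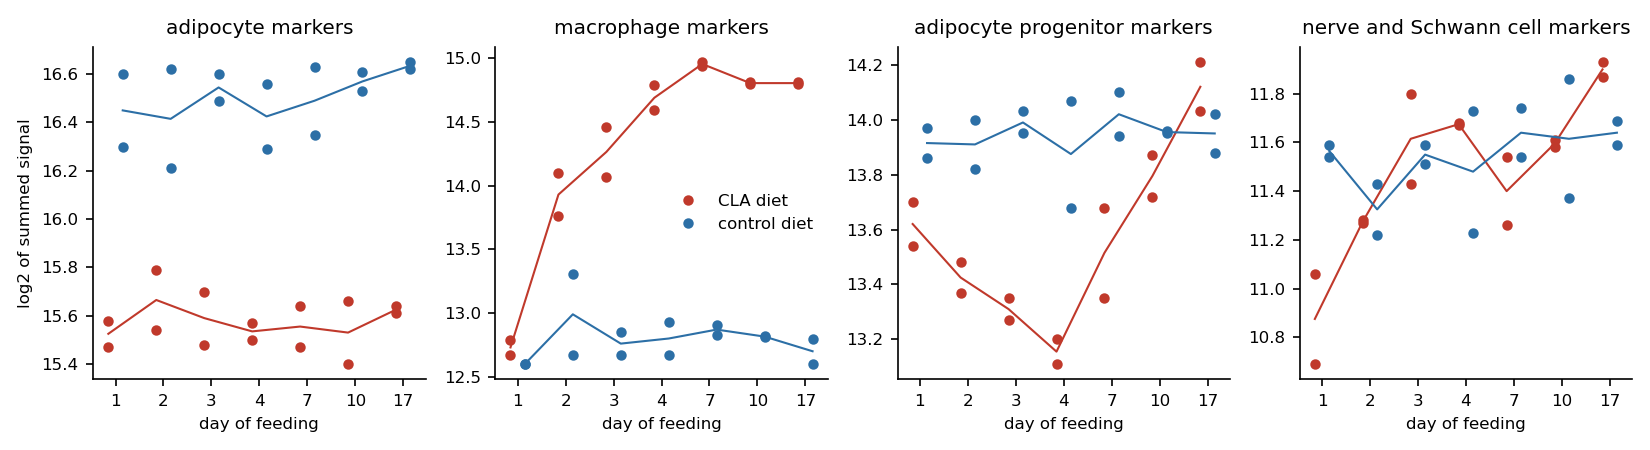
Log2 of the summed linear signal of marker genes of adipocytes, macrophages, adipocyte progenitors, and nerve and Schwann cells, by day of feeding. Points are single arrays (2 per diet and day; red CLA, blue control) and lines join their means. Adipocyte sums do not overlap between the diets, and macrophage sums under CLA reach 14.97.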

How the data were processed

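Retroperitoneal fat of mice on the CLA or control diet was measured on 28 Affymetrix arrays, with 2 per diet and day, grouped by their titles. Per the labels, 15 µg of total RNA went into each biotin-labelled cRNA. The deposited values are log2 probe-set signals made with RMA, per the submitters' processing notes, with no version given. They were used as deposited. Array number and signal over background limit the precision. Of 45101 probe sets, 34958 name 1 gene in the platform annotation, 932 name several and 9211 none, and 34754 matched RefSeq GRCm38.p6 by gene ID. Each gene is represented by its brightest probe set.

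limma 3.58.1 in R 4.3.3 was fitted to the 14 groups (14 residual degrees of freedom) for daily contrasts, late minus early and F tests. The all-days effect used group means with day as a block (6 residual degrees of freedom). Tests were two-sided with Benjamini-Hochberg adjustment over all genes, and the steps were tested on simulated data. Genes named from other lists are the 4 changed members with the largest all-days effect, besides neighbours, related growth factor genes, Adipoq and dim neural and adrenal markers, named after their values were seen. The members and lists were chosen with earlier results of these data known. Promoters are from RefSeq. Plots used matplotlib 3.10.9 with Python 3.11.15.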

Additional observations from a re-analysis of the deposited data

Results flagged for a closer look

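The CLA effect of 3 genes differed between days by the diet by day interaction, with limma's adjusted p at 0.00427 for Plagl1, 0.00811 for Peg3 and 0.0496 for Cdkn1c. The Plagl1 probe set used was furthest below control on day 4 and nearest on day 17, whereas 1450533_a_at was furthest below on day 17 (-0.80) and nearest on day 2 (0), and with the mean of the gene's probe sets the interaction was lost (0.294). The Peg3 probe set used moved from below control on day 4 to above it on days 10 and 17. On the sets 1417355_at and 1417356_at, days 10 and 17 did not pass, nor did the interaction (adjusted p = 0.184 and 0.0687). Cdkn1c fell on days 1 to 4 with no later difference past the threshold.

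A signal outside the genes compared came from probe set 1448194_a_at, annotated to both H19 and Mir675. H19 lies on chr7:142575530-142578146 (GRCm38.p6), and Mir675 lies within it at chr7:142577064-142577147. The probe set read 5.79 and 5.67 in CLA pads on day 1, against 5.24 and 5.38 in control pads. On day 3, where control was highest, it read 6.54 and 7.38 under CLA, against 6.46 and 6.25 under control. On day 10 it read 6.78 and 7.38 under CLA, against 4.99 and 5.52 under control. On day 17 it read 7.10 and 7.00 under CLA, against 5.92 and 5.31 under control. The CLA arrays lay above both control arrays on all 7 days, as they did for 1251 of 45037 probe sets (2.78%). The all-days difference was 1.07 ± 0.19 (SE, n = 7 days, adjusted p = 0.00264 over 45037 probe sets, of which 30.3% were called). By day it passed only on days 7 (1.80, adjusted p = 0.000686), 10 (1.83, 0.000569) and 17 (1.44, 0.00437). Of all probe sets 10.9%, 12.6% and 12.6% were called on these days. Days 1 to 4 did not pass (0.42 to 0.88, adjusted p = 0.076 to 0.492). Late minus early was 1.16 ± 0.26 (SE, adjusted p = 0.0109), where 5.6% of probe sets were called. The probe set cannot say which of the annotated transcripts was measured.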

How the results depend on the processing

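Of 2961 recomputed results for the 7 genes, 2810 kept their call, 128 lost it, 23 gained it and 0 reversed, where directions were compared only if at least 1 setting passed. Over all 7 days Mest (-1.75 to -1.23), Nnat (-3.84 to -3.35) and Plagl1 (-1.35 to -0.60) fell in all 19 alternatives. The day 10 rise count became 0 with the most variable probe set, the mean of a gene's probe sets or all probe sets tested, and the day 17 rise count 0 with the most variable probe set. The late minus early fall count became 0 with all probe sets or without the day 1 arrays, both chosen after seeing the data. Without the day 1 arrays 962 of all genes passed late minus early, against 1767, and 560 passed the interaction, against 1786. With the most variable probe set 1 member passed the interaction. The control by day count of 21 genes became 3 without dim genes. Leaving out single arrays gave falls of 1 to 4 on day 1, 0 to 4 on day 2, 2 to 4 on day 3 and 3 to 5 on day 4, rises of 0 to 1 on days 10 and 17, and late minus early falls of 0 to 1. Counts over all genes then ran from 343 to 2434 on day 2, 2687 to 4308 on day 3, 2846 to 4600 on day 4, 2095 to 3303 on day 7, 2432 to 3868 on day 10, 2352 to 3900 on day 17 and 15 to 225 for control by day.

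The replicate block raised the control by day count to 36 genes. Within days, deviations of same-numbered CLA and control arrays from their group means correlated at 0.0978 to 0.566, under 0.1 on day 7 alone. All were positive, so arrays may be paired by number, which the main tests leave out. With the block Peg3 passed on day 1 (-1.07, adjusted p = 0.0352), and Nnat passed the interaction (0.0167) and the test over CLA days (0.00332). Over all days the block was fitted to the 28 arrays in place of the group means, and Cdkn1c passed (-0.44, adjusted p = 0.00544). Cdkn1c also passed with the 28 arrays as units and no block (adjusted p = 0.00608), so this pass did not need the block. Both fits count arrays that may share a pool as replicates. No other call of the 7 genes changed with the block. The causes were not tested.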
